A study of Mus musculus with 8 samples.

Results

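Integrins are receptors for the extracellular matrix, and one of them, the β1 chain CD29, was used together with the surface glycoprotein CD24 to sort the mammary cells of this study. The genes described here are Cd24a and Itgb1, which encode those sort markers, and 8 further integrin genes, Itga2, Itga3, Itga5, Itga6, Itgav, Itgb3, Itgb4 and Itgb6. They were chosen by name, with earlier results of these data known. Every probe set whose annotated gene is one of these 10 was taken, which gave 29 of the 45101 probe sets and 10 of 18193 genes. Each gene is led by its brightest probe set (mean of the 8 arrays), and the others serve as a check. On GRCm38 (RefSeq) Cd24a lies at chr10:43579169-43584265, Itgb1 at chr8:128685654-128733579, Itga3 at chr11:95044475-95076844 and Itgb6 at chr2:60598292-60722603.

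RNA was hybridised to Affymetrix mouse arrays in 4 groups of 2 biological replicates. The groups were LIN-CD24+CD29hi cells (CD29hi below) of germline C/EBPb-/- mice (KO), the same cells of wildtype mice (WT), LIN-CD24hiCD29lo cells (CD29lo below) of KO mice, and CD29lo cells of WT mice. Per the labels' protocols the cells came from 2 paired sets of glands with 10 mice per group, so each array is a pool of animals, and the RNA was amplified with a NuGEN FFPE kit. A germline knockout acts in every cell, stroma and endocrine organs included, and no age or strain is stated in the labels. The design text states the aim as finding pathways that C/EBPb regulates in these stem and progenitor subpopulations.

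Every integrin is a pair of an α and a β chain that spans the membrane, binds matrix proteins outside and couples to the actin or keratin skeleton inside. The β1 chain pairs with many α chains, among them α2 (collagen), α3 and α6 (laminins) and α5 (fibronectin). The β4 chain pairs with α6 and anchors hemidesmosomes to the basement membrane, while αv pairs with β3 or β6, among others, and binds ligands with an RGD motif, including latent TGFβ. In the mammary gland the basal, myoepithelial cells sit on the basement membrane and carry more CD29 protein than the luminal cells, which carry more CD24. The β3 chain (CD61) and the α2 chain (CD49b) are used in the mouse as surface markers of luminal progenitors.

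The values are log2 expression values per probe set, and the lowest are at 0. A background per array, under which 95% of 27 spike-in probe sets for Bacillus subtilis genes fell, lay between 3.84 and 4.41. Cebpb, the targeted gene, read 8.60 and 9.38 in KO CD29hi, 11.95 and 12.25 in WT CD29hi, 9.23 and 8.89 in KO CD29lo, and 11.83 and 12.18 in WT CD29lo, so that every KO array lay below every WT array. The KO arrays were still well above the background, so the signal of this probe set was lower in KO and not absent. The sorted populations carried the markers of their gates, with 10 of 10 basal markers higher in CD29hi and 12 of 13 luminal markers higher in CD29lo (limma adjusted p under 0.05, both genotypes averaged). The LIN marker Ptprc (CD45) was above the background in 3 of 8 arrays, and Pecam1 (CD31) was above it in 8 of 8, between 5.61 and 7.40. Of 9 blood markers, Ptprc included, between 4 and 7 were above the background on each array, with mean log2 values from 3.55 to 5.07. Of 4 platelet markers, 3 were above it on each array. The CD29lo arrays also differed in stroma markers. The mean log2 value of 12 fibroblast markers was 7.56 and 10.53 in KO CD29lo and 9.46 and 11.18 in WT CD29lo, against 5.52 and 7.03 in KO CD29hi and 5.45 and 6.66 in WT CD29hi. KO CD29lo replicate 1 and WT CD29lo replicate 2 stood furthest apart within their gate. Their array correlation was 0.925, against 0.931 to 0.95 for the other pairs of CD29lo arrays. Printed values of the members that leaving both out moved past the replicate spread or across the threshold are given without them as well. The genes of the further lists were not checked in this way. In sorted bulk cells a gene's lower value can come from fewer cells that express it or from less RNA per cell, which cannot be told apart.

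Itga3 and Itgb6 are the members that stood furthest apart between the gates, in opposite directions, in the contrast averaged over the genotypes, and sequence upstream of both genes is shown for that reason. It comes from the 250 bases before an annotated transcript start. For Itga3 the 130 bases of that window nearest the start lie inside the gene's annotated span and are not printed, which leaves 120 bases. The sequences are from RefSeq on GRCm38, at chr11:95076845-95076964 for Itga3 and chr2:60722604-60722853 for Itgb6, both on the minus strand and written 5′ to 3′. Capitals mark GGGCGG, the GC box that Sp-family factors bind, searched on both strands together with TTGCNNAA, a relaxed form of the C/EBP site.
Itga3: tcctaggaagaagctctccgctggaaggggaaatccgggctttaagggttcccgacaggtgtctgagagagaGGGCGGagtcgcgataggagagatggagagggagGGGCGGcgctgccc
Itgb6: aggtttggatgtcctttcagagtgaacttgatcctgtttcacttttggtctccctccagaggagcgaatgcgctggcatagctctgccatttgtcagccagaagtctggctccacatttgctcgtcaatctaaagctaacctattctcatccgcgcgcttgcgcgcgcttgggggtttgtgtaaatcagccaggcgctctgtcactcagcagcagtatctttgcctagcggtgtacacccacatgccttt
The full Itga3 window held 3 GC boxes, whose first bases lie 178, 144 and 35 bases before that start, and its GC content was 67.6%. The third box lies inside the gene's span, so 2 are printed. The Itgb6 window held neither motif, at a GC content of 52%. Of 32851 mouse windows of the same length, 32.7% held GGGCGG and 9.56% held TTGCNNAA, and the median GC content was 52.4%. Windows were given for 6 members, Itga2, Itga3, Itga5, Itgav, Itgb1 and Itgb6. TTGCNNAA matched in 0 of their 8 windows, and GGGCGG matched in windows of Itgb1, Itga3 and Itga5. A match is a match of letters and says nothing about binding.

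Cd24a transcripts were higher in the CD24hi gate and Itgb1 transcripts higher in the CD29hi gate, by modest amounts. CD24 is a small GPI-anchored sialoglycoprotein. Cd24a read 12.19 and 12.27 in KO CD29hi, 12.24 and 12.27 in WT CD29hi, 12.85 and 12.95 in KO CD29lo, and 12.93 and 12.72 in WT CD29lo. The 4 CD29hi arrays thus lay below the 4 CD29lo arrays, with a mean of 12.24 ± 0.0377 against 12.86 ± 0.104 (SD, n = 4 each), a log2 difference of -0.62 or 1.54-fold. The other 2 probe sets differed by -0.61 and -0.81. Itgb1, the β1 chain itself, read 11.90 and 11.65 in KO CD29hi, 11.66 and 11.69 in WT CD29hi, 11.43 and 11.42 in KO CD29lo, and 11.39 and 11.59 in WT CD29lo. The CD29hi arrays lay above the CD29lo arrays, at 11.72 ± 0.118 against 11.46 ± 0.0900 (SD, n = 4 each), a log2 difference of 0.27 or 1.20-fold. Of the 5 other Itgb1 probe sets the 2 bright ones pointed the same way (0.31 and 0.25), while the 3 dim ones, with means of 5.38, 5.30 and 1.49, overlapped between the gates at -0.06, -0.20 and -0.02. Because the proteins of both genes defined the gates, these differences describe the sort and were not tested. The difference in Itgb1 transcript was 1.27-fold in KO and 1.14-fold in WT, and that in Cd24a 1.59-fold and 1.48-fold, with the gate difference in KO minus that in WT at 0.17 ± 0.176 for Itgb1 (SE, limma adjusted p = 0.972) and -0.10 ± 0.129 for Cd24a (limma adjusted p = 0.974).

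**Figure D1:**
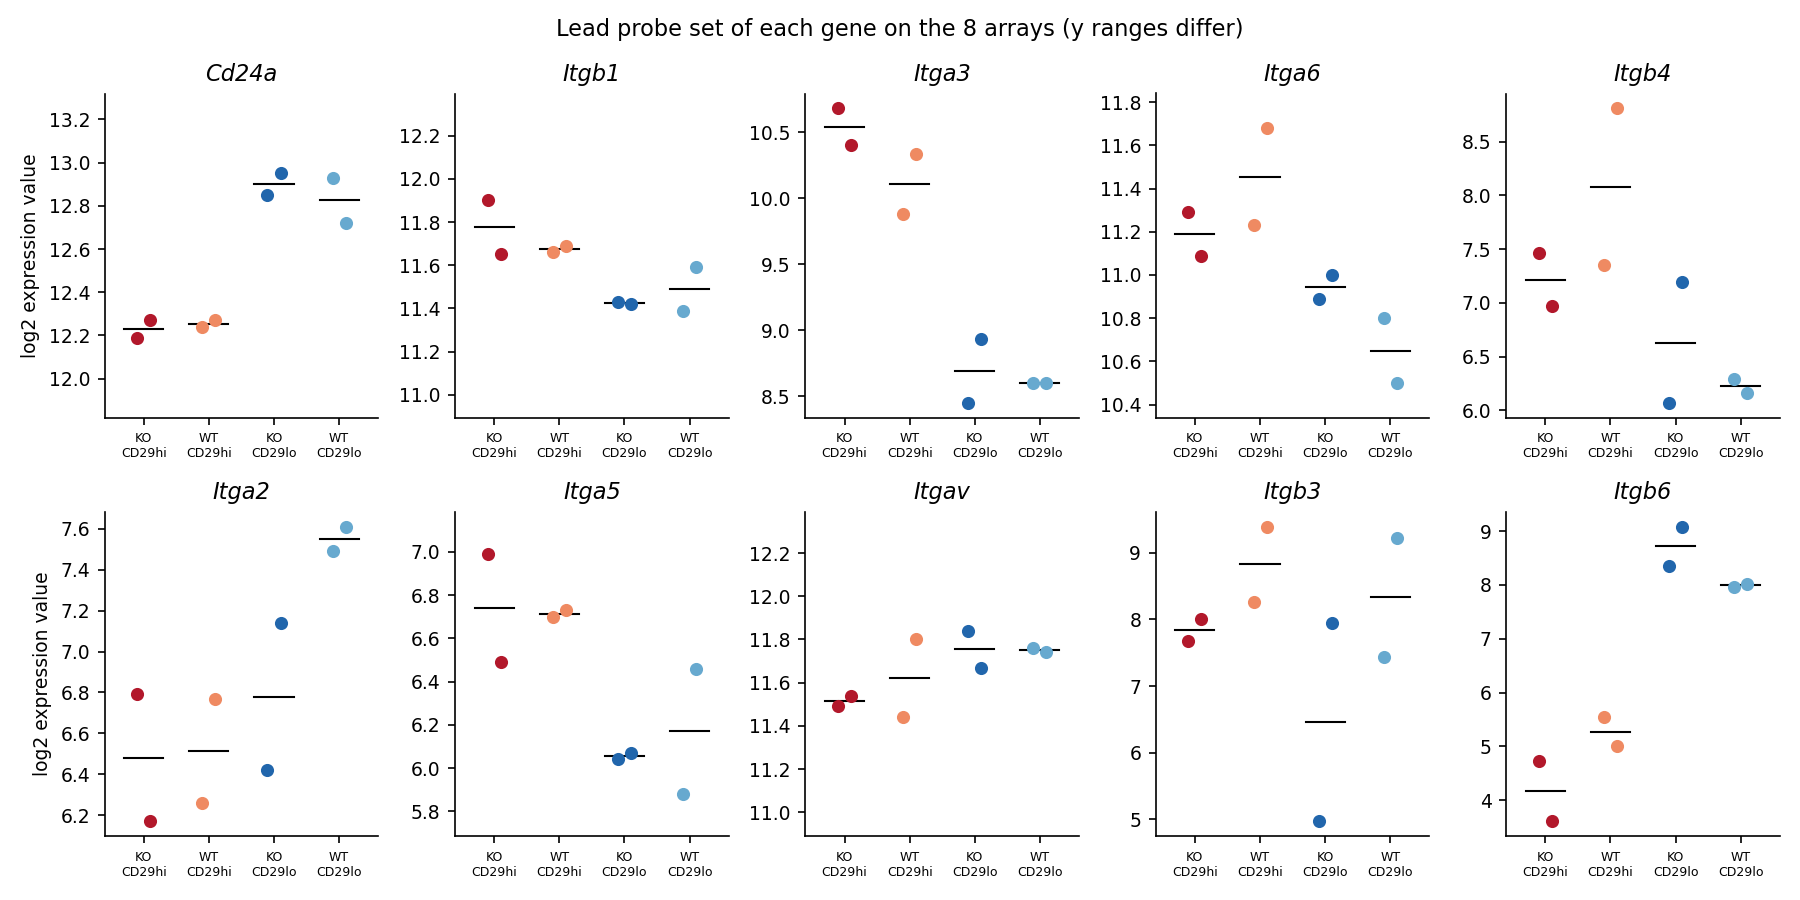
Log2 expression values (y) of the lead probe set of each gene in the 4 groups (x: KO and WT CD29hi, then KO and WT CD29lo). Each point is 1 array and each line a group mean, and the y ranges differ between panels. Cd24a and Itgb6 lie lower in the 4 CD29hi arrays, Itga3 lies higher in them, and Itgb3 spreads most within KO CD29lo (4.97 and 7.94).

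Within the gates neither sort marker transcript differed detectably between the genotypes. Cells of both genotypes were gated on the proteins of these genes, which limits how far the transcripts could differ within a gate. The same limit holds for the KO minus WT comparison of their gate differences above. Whether the knockout changes either marker in unsorted cells was not tested. For Cd24a the KO minus WT difference was -0.02 ± 0.0910 in CD29hi and 0.08 ± 0.0910 in CD29lo (SE, limma adjusted p = 0.984 and 0.906). Averaged over the gates its 95% interval ran from -0.12 to 0.17. For Itgb1 the difference was 0.10 ± 0.124 in CD29hi and -0.07 ± 0.124 in CD29lo (limma adjusted p = 0.927 and 0.943), with an averaged interval from -0.18 to 0.22. On the lead probe sets, both gating markers were thus measured with the narrowest intervals among the 10 genes, together with Itgav. These intervals, and those below, are not adjusted for the number of genes. The other Itgav probe sets gave KO minus WT differences from -0.45 to 0.05 in CD29hi and from -0.01 to 0.95 in CD29lo. None of them was called by limma.

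Of the laminin receptor chains, Itga3 and Itga6 were called higher in CD29hi cells in the averaged contrast, and Itgb4 was not. The α3 chain pairs with β1 and binds laminin-332 and laminin-511. Itga3 read 10.68 and 10.40 in KO CD29hi and 9.88 and 10.33 in WT CD29hi, against 8.45 and 8.93 in KO CD29lo and 8.60 in both WT CD29lo arrays. The gates did not overlap in either genotype. The log2 difference was 1.85 ± 0.256 in KO (SE, 3.61-fold, limma adjusted p = 0.00299), 1.50 ± 0.256 in WT (2.84-fold, limma adjusted p = 0.0101) and 1.68 ± 0.181 averaged over both (3.20-fold, limma adjusted p = 0.000441). A second probe set, tested among 33828 probe sets, gave 2.00 (limma adjusted p = 0.000879 averaged), and the third, whose suffix marks probes shared between transcripts, gave 0.54 (limma adjusted p = 0.114). In WT, Itga3 no longer passed with WT CD29hi replicate 2 left out (1.28, adjusted p = 0.0771) or with WT CD29lo replicate 1 left out (1.50, adjusted p = 0.0578).

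Itga6, whose α6 chain (CD49f) joins β1 or β4 and is itself a common basal sort marker, differed less. It read 11.29 and 11.09 in KO CD29hi, 11.23 and 11.68 in WT CD29hi, 10.89 and 11.00 in KO CD29lo, and 10.80 and 10.50 in WT CD29lo. The 4 CD29hi arrays lay above the 4 CD29lo arrays, and the averaged difference was 0.52 ± 0.131 (SE, 1.44-fold, limma adjusted p = 0.0222). In WT it was 0.81 ± 0.185 (limma adjusted p = 0.0328), and in KO 0.24 ± 0.185 (limma adjusted p = 0.432). The WT call was lost in 8 of 20 alternatives, among them the fits without both CD29lo arrays that stand apart (0.65, adjusted p = 0.144), without a variance trend (0.81, adjusted p = 0.132) and over the WT arrays alone (0.80, adjusted p = 0.0640). It was also lost without either KO CD29hi array, without WT CD29hi replicate 2 and without either WT CD29lo array (adjusted p between 0.0527 and 0.173). The difference between the WT and KO values was itself not called (-0.56 ± 0.261, limma adjusted p = 0.961, unadjusted p = 0.063). The other Itga6 probe set differed by 0.60 averaged over the genotypes. The call averaged over the genotypes was lost in the fits without KO CD29hi replicate 1, WT CD29hi replicate 2, KO CD29lo replicate 1 or WT CD29lo replicate 2 (adjusted p = 0.0876, 0.0623, 0.0554 and 0.0671) and without a variance trend (0.091). Without both CD29lo arrays that stand apart it was 0.42 (adjusted p = 0.114).

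Itgb4, the hemidesmosomal partner of Itga6, showed the wider spread of that pair. It read 7.46 and 6.97 in KO CD29hi and 7.35 and 8.81 in WT CD29hi, against 6.07 and 7.19 in KO CD29lo and 6.29 and 6.16 in WT CD29lo. WT CD29hi replicate 2 was the highest array, and the KO groups overlapped between the gates. The averaged gate difference of 1.22 ± 0.391 (SE, limma adjusted p = 0.0566) missed the threshold, as did those of 1.85 ± 0.553 in WT (limma adjusted p = 0.0841) and 0.58 ± 0.553 in KO (limma adjusted p = 0.545). The averaged contrast passed without WT CD29hi replicate 1 (1.58, adjusted p = 0.0269) or KO CD29lo replicate 2 (1.50, adjusted p = 0.0331), with a filter at the 50th percentile (adjusted p = 0.0483) and with probe sets averaged per gene (adjusted p = 0.0494). The WT value was 2.58 without WT CD29hi replicate 1 and 1.12 without WT CD29hi replicate 2. Its gene has 1 probe set here, so nothing checks it.

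For Itga2 and Itga5, the α chains for collagen and fibronectin among the members, no gate difference was called. Itga2, whose α2β1 receptor binds collagen, read 6.79 and 6.17 in KO CD29hi, 6.26 and 6.77 in WT CD29hi, 6.42 and 7.14 in KO CD29lo, and 7.49 and 7.61 in WT CD29lo. The WT CD29lo arrays were the highest and did not overlap with any other group. The gate difference was -0.30 ± 0.403 in KO (limma adjusted p = 0.688), -1.03 ± 0.403 in WT (limma adjusted p = 0.178) and -0.67 ± 0.285 averaged (limma adjusted p = 0.133). Itga5, the α5 chain of the fibronectin receptor, read 6.99 and 6.49 in KO CD29hi, 6.70 and 6.73 in WT CD29hi, 6.04 and 6.07 in KO CD29lo, and 5.88 and 6.46 in WT CD29lo. Its CD29hi arrays lay just above its CD29lo arrays, with an averaged difference of 0.62 ± 0.262 (SE, limma adjusted p = 0.132). In WT the difference was 0.55, and 0.83 without both CD29lo arrays that stand apart. Its 3 other probe sets were dimmer, with means of 4.99, 4.34 and 1.98, and gave 1.28, -0.03 and 0.46.

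Of the RGD-binding chains Itgb6 showed the widest gate difference of the 8 integrins, lower in CD29hi cells. The αvβ6 receptor is restricted to epithelia and activates latent TGFβ. Itgb6 read 4.73 and 3.61 in KO CD29hi and 5.54 and 5.01 in WT CD29hi, against 8.35 and 9.08 in KO CD29lo and 7.97 and 8.02 in WT CD29lo. KO CD29hi replicate 2 was below the background (3.94), and the other 7 arrays were above theirs. The log2 difference was -4.54 ± 0.472 in KO (SE, 23.3-fold, limma adjusted p = 0.000897), -2.72 ± 0.472 in WT (6.59-fold, limma adjusted p = 0.011) and -3.63 ± 0.334 averaged (12.4-fold, limma adjusted p = 0.000201). The second probe set gave -4.38, -3.54 and -3.96 (limma adjusted p = 0.000708, 0.00243 and 8.61e-05). Since 1 of the 2 KO CD29hi arrays was above its background, the KO difference is partly one against background. With values below the background raised to it, the difference was -4.38 in KO, -2.72 in WT and -3.55 averaged (limma adjusted p = 0.000774, 0.008 and 0.000165). In WT, Itgb6 no longer passed with WT CD29hi replicate 2 left out (-2.46, adjusted p = 0.0800), nor with either WT CD29lo array left out (-2.75 without replicate 1, adjusted p = 0.0647, and -2.69 without replicate 2, adjusted p = 0.0557).

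Itgav, the α partner of both Itgb6 and Itgb3, hardly differed on its lead probe set. It read 11.49 and 11.54 in KO CD29hi, 11.44 and 11.80 in WT CD29hi, 11.84 and 11.67 in KO CD29lo, and 11.76 and 11.74 in WT CD29lo. The averaged difference was -0.18 ± 0.0962 (SE, limma adjusted p = 0.209), with a 95% interval from -0.41 to 0.04. The 4 other probe sets pointed the same way, between -0.46 and -0.51, and none was called among 33828 probe sets (smallest limma adjusted p = 0.0566). The brighter ones, with means of 9.38 and 9.20, lay lower in CD29hi without overlap in either genotype (-0.47 and -0.49 averaged).

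Itgb3 did not separate the gates, and its replicates lay far apart. It read 7.68 and 8.01 in KO CD29hi, 8.26 and 9.39 in WT CD29hi, 4.97 and 7.94 in KO CD29lo, and 7.44 and 9.22 in WT CD29lo. The SD of the 2 KO CD29lo arrays was 2.10, and the averaged gate difference was 0.94 ± 0.661 (SE, limma adjusted p = 0.350). It was called without KO CD29lo replicate 2 (1.69, adjusted p = 0.0444), which leaves the lowest array as the sole KO CD29lo array. The other probe set behaved alike, with 1.60 and 5.36 in KO CD29lo, and KO CD29lo replicate 1 was again the lowest of the 8.

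**Figure D2:**
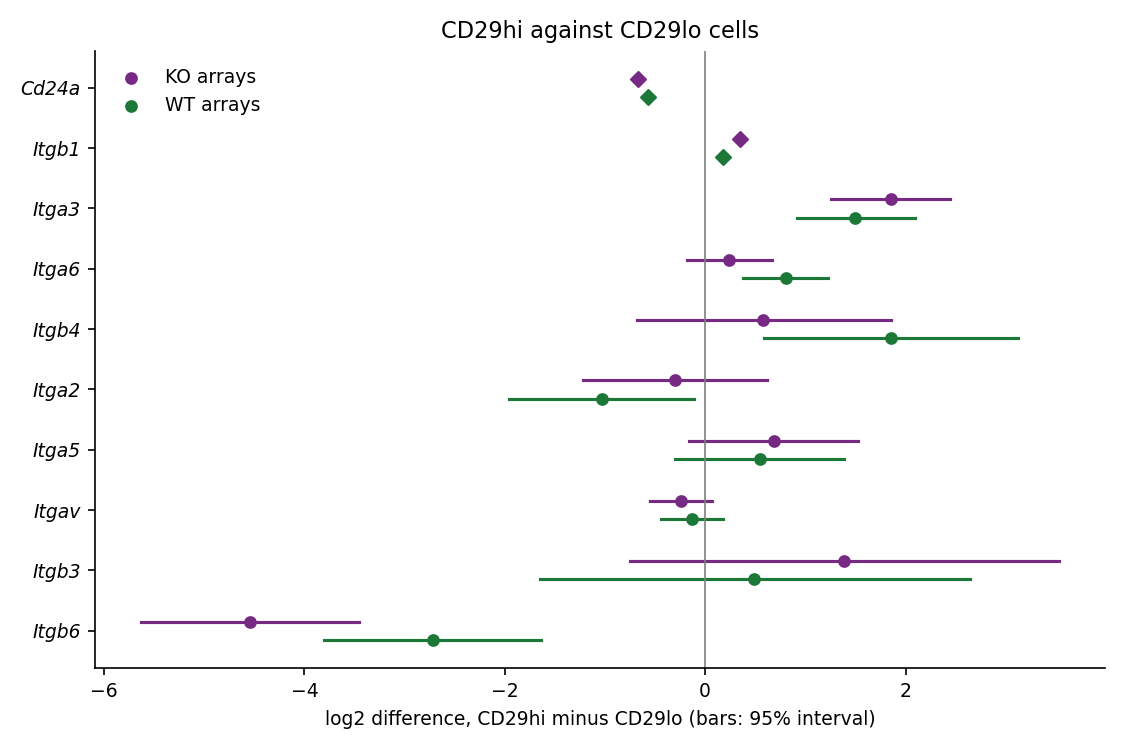
Log2 difference between CD29hi and CD29lo cells (x, CD29hi minus CD29lo) for each gene (y), in KO arrays (purple, upper) and WT arrays (green, lower). Circles carry 95% intervals from the limma fit, and diamonds mark the sort markers, given without an interval. Itga3 lies at 1.85 and 1.50, and Itgb6 at -4.54 and -2.72.

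In all, 3 of the 8 integrins outside the sort were called between the gates in the averaged contrast, 2 higher in CD29hi (Itga3 and Itga6) and 1 lower (Itgb6). Over the 14597 genes tested 22.9% were called in that contrast, 12.2% higher and 10.8% lower. In KO 2 of 8 were called, Itga3 and Itgb6, 1 higher and 1 lower, against 14.1% of all genes (7.41% higher and 6.67% lower). In WT 3 of 8 were called, Itga3, Itga6 and Itgb6, 2 higher and 1 lower, against 8.19% of all genes (3.96% higher and 4.23% lower). Groups that did not overlap were seen for 4 of 8 in the averaged contrast, against 25.3% of all genes. As the members were chosen with earlier results of these data known, these shares only describe them. The median log2 difference of the 10 members, sort markers included, was 0.40, beside 0.01 for all genes.

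**Figure D3:**
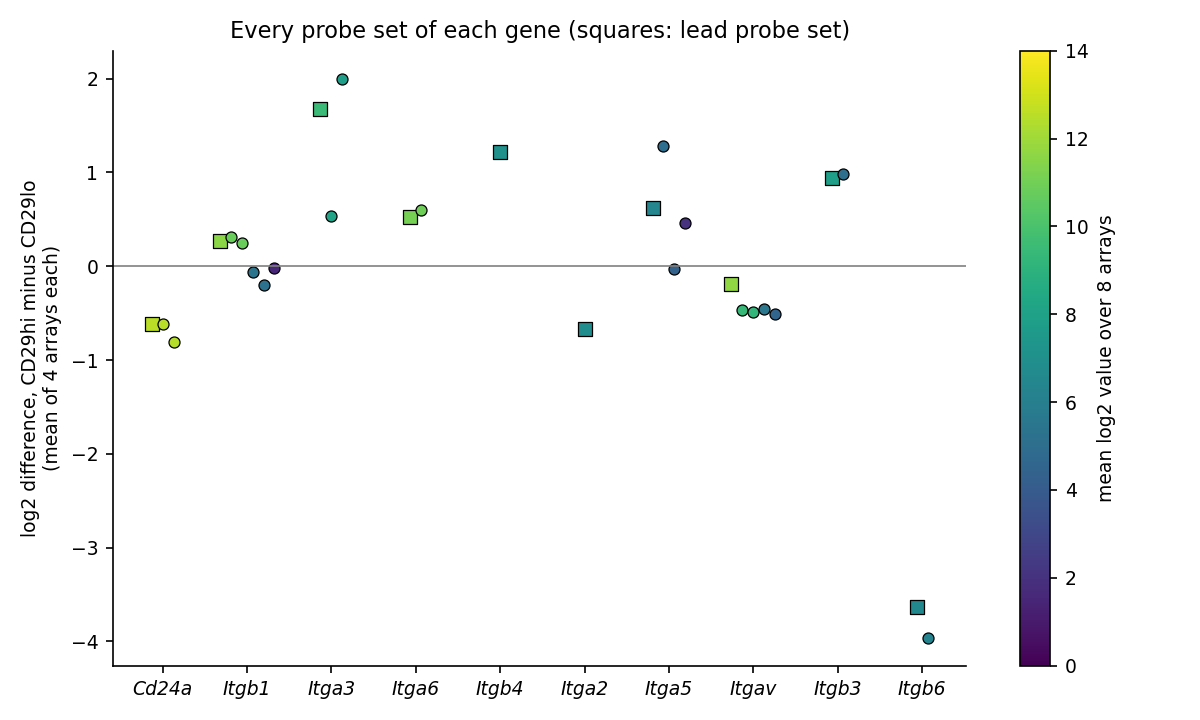
Log2 difference between CD29hi and CD29lo cells (y, mean of 4 arrays each, CD29hi minus CD29lo) for every probe set of each gene (x). Squares are lead probe sets, circles the others, and colour gives the mean log2 value over the 8 arrays. The probe sets of Cd24a, Itga6, Itgb3 and Itgb6 keep together, whereas those of Itga3 spread from 0.54 to 2.00 and those of Itga5 from -0.03 to 1.28.

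Between the genotypes, 0 of the 10 genes passed the threshold in CD29hi, in CD29lo, averaged over the gates or in the interaction by limma. Of all genes 0.0137% were called in CD29hi, 0.0137% in CD29lo, 0.0685% averaged and 0% in the interaction, so that few genes of any kind passed with 2 arrays a group. The counts in this paragraph are of lead probe sets. At an unadjusted p under 0.05 there was 1 member in CD29hi, 0 in CD29lo, 0 averaged and 1 in the interaction, each time Itgb6. The shares of all genes were 7.84%, 6.67%, 9.26% and 4.95%. A dimmer probe set of Itga5 also had an unadjusted p under 0.05, as given below. KO and WT arrays did not overlap for 3 of 10 members in CD29hi (Itga3 higher in KO, Itgb3 and Itgb6 lower), where 39.5% of all genes did not overlap, 18.3% higher and 21.2% lower. In CD29lo this held for 3 of 10 (Itga6 and Itgb6 higher in KO, Itga2 lower), against 34.3% of all genes, 14.7% higher and 19.6% lower. No member separated all 4 KO from all 4 WT arrays, against 3.24% of all genes. The median KO minus WT difference of the members was -0.07 in CD29hi and 0.04 in CD29lo, beside -0.02 and -0.06 for all genes.

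Itgb3 had the largest genotype difference among the members averaged over the gates, without passing. Its arrays gave a log2 difference of -0.98 ± 0.935 in CD29hi (SE, limma adjusted p = 0.888), -1.88 ± 0.935 in CD29lo (limma adjusted p = 0.756) and -1.43 ± 0.661 averaged (limma adjusted p = 0.563, unadjusted p = 0.0616). In CD29hi both KO arrays lay below both WT arrays on each of its 2 probe sets, while in CD29lo they overlapped. The averaged value was -0.68 without KO CD29lo replicate 1 and -2.17 without KO CD29lo replicate 2, and the CD29lo value -0.39 and -3.36. Without both CD29lo arrays that stand apart, the averaged value was -0.24 and the CD29lo value 0.50. Those arrays held the lower KO and the higher WT value of Itgb3 in CD29lo. Leaving both out therefore had to raise KO minus WT, and the size of the move is no check of the difference. In CD29lo that fit sets KO replicate 2 against WT replicate 1, so genotype and replicate number cannot be told apart there. The averaged value of that fit includes this comparison. Within CD29lo the 4 arrays had the same order by the lead Itgb3 probe set as by the fibroblast mean, with KO CD29lo replicate 1 lowest and WT CD29lo replicate 2 highest on both. The part of fibroblast RNA in the Itgb3 values was not tested. The genes whose profile over the 8 arrays came nearest to that of Itgb3, looked up after its values were seen, were St3gal6, Htra1 and Rnase4. Their root mean square differences after centring were 0.224, 0.269 and 0.376, against a median of 1.32 over all genes. A flat profile would differ from Itgb3 by 1.272. Htra1, a secreted serine protease, read 6.38 and 9.21 in KO CD29lo and 8.06 and 10.17 in WT CD29lo.

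**Figure D4:**
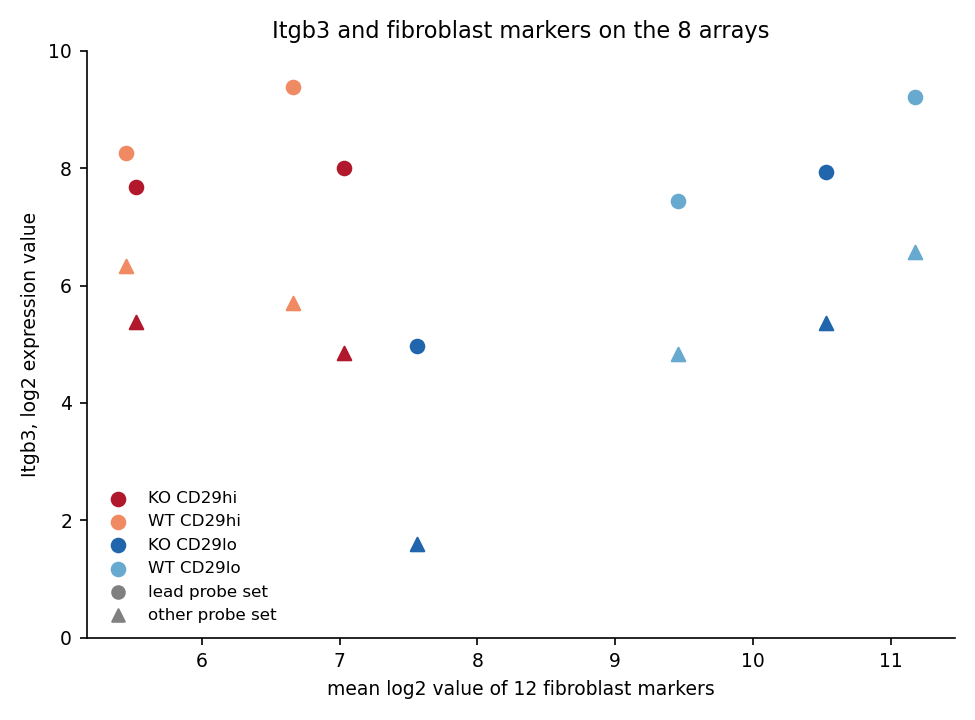
Itgb3 log2 expression values (y; circles, lead probe set; triangles, other probe set) against the mean log2 value of 12 fibroblast markers (x) on the 8 arrays, coloured by group. KO CD29lo replicate 1 has the lowest Itgb3 value on both probe sets (4.97 and 1.60) and the lowest fibroblast mean of the CD29lo arrays (7.56), while CD29hi arrays with lower fibroblast means (5.45 to 7.03) have lead values between 7.68 and 9.39.

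No genotype difference of Itgb6 passed, and its lead probe set pointed in opposite directions in the 2 gates. KO arrays lay below WT arrays in CD29hi (-1.10 ± 0.472, limma adjusted p = 0.632) and above them in CD29lo (0.72 ± 0.472, limma adjusted p = 0.817). The CD29hi value was -0.54 without KO CD29hi replicate 2, the array below its background, -1.67 without KO CD29hi replicate 1, and -0.94 with values below the background raised to it. The second probe set gave -0.19 in CD29hi, where its groups overlapped, and 0.66 in CD29lo, where KO lay above WT. For the other laminin and collagen receptor chains, Itga3 differed by 0.43 ± 0.256 in CD29hi (limma adjusted p = 0.774), Itgb4 by -0.86 ± 0.553 in CD29hi (limma adjusted p = 0.806) and Itga2 by -0.77 ± 0.403 in CD29lo (limma adjusted p = 0.773). The 95% interval for Itgb4 in CD29hi ran from -2.13 to 0.40, and the value was -1.59 without WT CD29hi replicate 1 and -0.14 without WT CD29hi replicate 2. The Itga2 value in CD29lo was -0.35 without both CD29lo arrays that stand apart. Those arrays again held the lower KO and the higher WT value, so KO minus WT had to rise.

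The probe sets of Itga5 gave different values for the genotypes in CD29hi cells, and no difference was called. The lead probe set differed by 0.03 ± 0.370 there (limma adjusted p = 0.997). Another read 5.05 and 5.20 in KO CD29hi against 3.64 and 3.39 in WT CD29hi, where both WT arrays were below the background, so no size is given (limma adjusted p = 0.479 among 33828 probe sets). The unadjusted limma p of that probe set was 0.00663 in CD29hi, 0.0281 averaged over the gates and 0.042 in the interaction. A further one read 6.39 and 5.94 against 5.02 and 5.19 (1.06 ± 0.763, limma adjusted p = 0.888). The dimmest read 4.04 and 2.30 against 2.04 and 0.48, mostly below the background, and was too dim to be tested. Each of these dimmer probe sets had both KO arrays above both WT arrays in CD29hi. The lead probe set has the suffix of probes shared between transcripts.

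**Figure D5:**
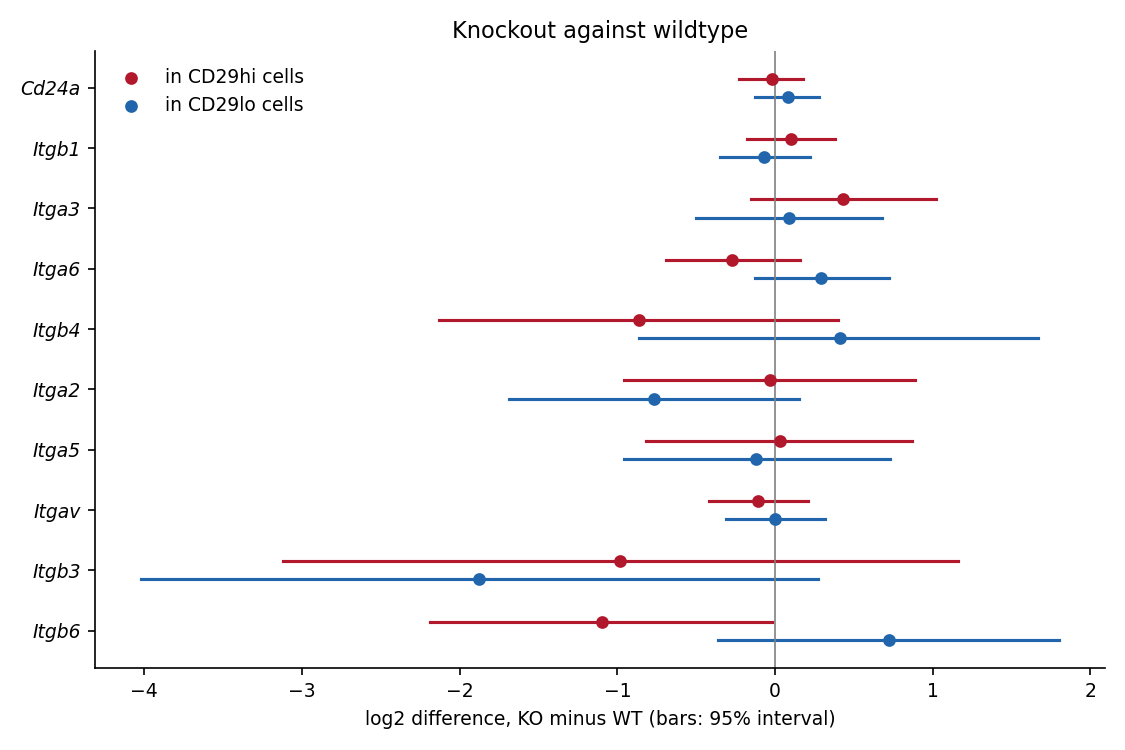
Log2 difference between KO and WT (x, KO minus WT) for each gene (y) in CD29hi cells (red, upper) and CD29lo cells (blue, lower), with 95% intervals from the limma fit that are not adjusted for the number of genes. Lead probe sets are shown. The intervals of Cd24a, Itgb1 and Itgav are the narrowest, and Itgb3 reaches from -3.12 to 1.16 in CD29hi and from -4.02 to 0.27 in CD29lo.

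Other genes of integrin biology were read from lists, also chosen with earlier results of these data known. Of the 14 further integrin genes tested, 3 were called higher and 1 lower in CD29hi averaged over the genotypes, against 12.2% higher and 10.8% lower over all genes, with a median log2 difference of -0.40 beside 0.01 for all genes. Higher were Itga9 (1.82 ± 0.289, limma adjusted p = 0.00298), whose α9β1 receptor binds tenascin C, Itga1 (1.38 ± 0.388, limma adjusted p = 0.0350), a collagen receptor chain, and Itga2b (1.28 ± 0.359, limma adjusted p = 0.0352), the platelet chain that pairs with β3. Itgb5, another partner of αv, was lower (-1.11 ± 0.331, limma adjusted p = 0.0433). Between the genotypes, averaged over the gates, 0 of the 14 were called, and the smallest p in that contrast belonged to Itgb2l (0.73, limma adjusted p = 0.545) and Itgb7 (-1.04, limma adjusted p = 0.576).

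Of 27 cytoplasmic adaptors of integrins tested, 10 were called higher in CD29hi and 2 lower, in the averaged contrast where 12.2% of all genes were higher and 10.8% lower (median 0.24). Tns3, a tensin, differed by 2.21 (limma adjusted p = 7.67e-05), the actin crosslinker Flna by 2.04 (limma adjusted p = 9.38e-05) and parvin Parva by 0.96 (limma adjusted p = 0.000916), while the kinase Ptk2b differed by -2.40 (limma adjusted p = 0.000952). Of 7 hemidesmosome and tetraspanin genes tested, 2 were higher and 2 lower, beside the same 12.2% and 10.8% of all genes (median -0.06). The hemidesmosomal collagen Col17a1 read 11.28 and 11.19 in KO CD29hi and 11.00 and 10.96 in WT CD29hi, against 7.05 and 5.91 in KO CD29lo and 5.16 and 6.10 in WT CD29lo (5.05 ± 0.304, limma adjusted p = 3.37e-05). The laminin-binding integrin partner Cd151 was higher as well (0.74, limma adjusted p = 0.00268), and the tetraspanins Cd82 (-2.21, limma adjusted p = 0.00268) and Cd81 (-0.33, limma adjusted p = 0.0328) were lower. Of 22 ligands tested, 4 were higher and 6 lower, again beside 12.2% and 10.8% of all genes (median 0.02). The laminin chains Lamb3 (3.41), Lama3 (4.76) and Lama1 (4.83) were higher in CD29hi, with limma adjusted p of 6.98e-06, 4.83e-05 and 0.000152, and the latent TGFβ binding protein Ltbp1 was lower (-1.78, limma adjusted p = 7.83e-05). Fibroblast markers were also lower in CD29hi, in 10 of 12 genes, and their part in the ligand values was not tested. The CD24 partners Siglecg (-0.30) and Selp (0.23) were not called between the gates (limma adjusted p = 0.581 and 0.761). Averaged over the gates, 0 of these adaptors, hemidesmosome genes, ligands and CD24 partners were called between the genotypes. The smallest p among the adaptors belonged to Ptk2b (1.20 ± 0.304, limma adjusted p = 0.297) and Flna (-0.47, limma adjusted p = 0.406), and among the hemidesmosome and tetraspanin genes to Col17a1 (0.55, limma adjusted p = 0.638) and Cd9 (0.13, limma adjusted p = 0.742). Among the ligands it belonged to Lamb3 (0.46 ± 0.135, limma adjusted p = 0.347) and Lama4 (-1.60, limma adjusted p = 0.411).

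The genes whose profile over the 8 arrays came nearest to that of Cd24a were Btg1, Katna1 and Gata3. Their root mean square differences between centred log2 values were 0.071, 0.079 and 0.083, against a median of 0.54 over all tested genes. A flat profile would differ from Cd24a by 0.317. Gata3, a luminal transcription factor, read 10.33 and 10.36 in KO CD29hi and 10.43 and 10.44 in WT CD29hi, against 10.86 and 10.93 in KO CD29lo and 10.90 and 10.87 in WT CD29lo. Nearest to Itgb1 were Ybx3, Tmsb10 and Srsf9, with differences of 0.053, 0.059 and 0.060 against a median of 0.456. A flat profile would differ from Itgb1 by 0.162. Tmsb10, which binds actin monomers, read 13.10 and 13.02 in KO CD29hi and 12.90 and 12.96 in WT CD29hi, against 12.70 and 12.79 in KO CD29lo and 12.74 and 12.91 in WT CD29lo. The 8 arrays fall into the 2 gates, so the gate difference enters this measure of likeness. The genes were picked for the smallest differences, so their distance from the median is no test.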

How the data were processed

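RNA from sorted mammary cells of pooled mice, 2 arrays per group, was measured on Affymetrix mouse arrays. The deposited values are log2 expression values per probe set, and no label says how they were summarised, background-corrected and normalized. RNA isolation and amplification are as in the labels' protocols. Of 45101 probe sets, 34958 were annotated to 1 gene, 932 to several and 9211 to none, and 34754 matched RefSeq. The lead probe set per gene was kept where its mean reached 3.51, the 25th percentile of all probe sets, which left 14597 genes with all 10 members. Group means were fitted over the 8 arrays with limma 3.58.1 in R 4.3.3 (eBayes with a trend, 4 residual degrees of freedom, Benjamini-Hochberg adjustment, threshold 0.05). The number of arrays limits the precision, and p-values measure the spread between arrays of a group. The main fit takes the 8 arrays as independent, although the labels speak of paired sets of glands. CD29hi and CD29lo cells of a genotype may thus share animals. With genotype and replicate number as a random block, the correlation within a block was 0.017. The fit was tested on simulated data. Tables and figures used Python 3.11.15 and matplotlib 3.10.9. Named were the members, of each further list the called genes (at most 4 of smallest p per list and contrast, filled up to 2 by smallest p), and the 3 nearest profiles of each sort marker. The members and lists were chosen with earlier results of these data known. Alternatives covered normalization, filters, probe sets, variance prior, array weights, blocks, background and left-out arrays.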

Additional observations from a re-analysis of the deposited data

Results flagged for a closer look

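Itgb6 was the member whose genotype difference pointed in opposite directions in the 2 gates with no overlap of arrays in either. Its KO minus WT difference was -1.10 in CD29hi and 0.72 in CD29lo, a difference of -1.82 ± 0.668 between the gates (SE, limma unadjusted p = 0.0249, adjusted p = 0.961 over 14597 genes), which did not pass. KO CD29hi replicate 2 read 3.61, below its background of 3.94. Without it the CD29hi value was -0.54 and the difference between the gates -1.26, and with values below the background raised to it -0.94 and -1.66. The second Itgb6 probe set gave -0.19 in CD29hi, where its KO and WT arrays overlapped, and 0.66 in CD29lo.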

How the results depend on the processing

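The averaged gate differences of Itga3 and Itgb6 were called under each of the 19 alternatives, between 1.40 and 1.80 for Itga3 and between -3.91 and -3.35 for Itgb6. Leaving out 1 array at a time moved the count of members called between the gates from 3 to between 0 and 3 in WT, with 0 without WT CD29hi replicate 2 or the first WT CD29lo array and 1 (Itga3) when the second WT CD29lo array was left out. In the averaged contrast it moved the count from 3 to between 2 and 5, with 5 without KO CD29lo replicate 2, where Itgb3 and Itgb4 were added. A group left with 1 array borrows its spread from the remaining groups. Between the genotypes and in the interaction 0 members were called under every alternative, including the fit without both CD29lo arrays that stand apart, which was chosen after seeing the data. Same-numbered arrays deviated together with correlations between 0.006 and 0.321. The labels speak of paired sets of glands without saying that the number marks the set. The numbers were therefore not taken to pair the arrays. In each group, though, replicate 2 had a higher fibroblast mean and a higher lead Itgb3 value than replicate 1. The main fit has no block and counts such a shift as spread, so its p-values for Itgb3 depend on that choice. The other Itgb3 probe set was higher in replicate 2 in the CD29lo groups and lower in the CD29hi groups. With a replicate block the averaged gate contrast called 4 members (Itgb4 added, adjusted p = 0.0464), the contrasts in KO and WT 2 and 3, and the genotype contrasts 0. No value changed its direction past the threshold. Cd24a and Itgb1 were bright on 8 of 8 arrays, whereas Itgb6 lay near the background in CD29hi.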
